A study of Homo sapiens with 11 samples.

Results

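The genes described here encode the nuclear subunits of respiratory complexes I, III and IV, together with the assembly factors whose symbols share the same stem. They were taken from the array annotation by symbol alone: every probe set whose gene symbol starts with NDUFA, NDUFB, NDUFC, NDUFS, NDUFV, UQCR, COX4, COX5, COX6, COX7 or COX8, without pseudogenes. The rule gave 123 probe sets of 67 genes, of 19775 genes that have a probe set with 1 symbol. Of these, 64 genes with 119 probe sets code for protein, and 3 are antisense or divergent RNAs (NDUFB2-AS1, NDUFV1-DT and NDUFV2-AS1) with 4 probe sets. By role the genes are 5 core subunits of complex I, 28 accessory subunits of complex I, 8 complex I assembly factors, 6 subunits of complex III, 11 subunits of complex IV in the form most tissues use, and 6 isoforms of complex IV subunits that are known from particular tissues. Another 11 probe sets that carry several symbols were left out, as was 1 pseudogene probe set, so members read only by such probe sets are not analysed here.

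IMR32 is an established human neuroblastoma line that carries many copies of MYCN, the gene of a MYC family transcription factor. Cells were grown in DMEM with fetal calf serum and read on 11 one-colour arrays: 2 without virus at 0 hours, 3 with a control lentivirus carrying the hairpin SHC002 (1 array each at 24, 48 and 72 hours) and 6 with a lentivirus carrying the hairpin shMYCN#3 (2 arrays, A and B, at each of the same times). The study set out to define which genes depend on MYCN. All 6 arrays labelled shMYCN carry the same single hairpin, so a response to MYCN and any other effect of that hairpin cannot be told apart. The labels do not say that A and B came from separate cultures, so the p-values may rest on technical spread alone, and the number of arrays limits their precision.

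The respiratory chain sits in the inner mitochondrial membrane. Complex I takes electrons from NADH, complex III passes them from ubiquinol to cytochrome c, and complex IV hands them to oxygen, and all of them pump protons that drive ATP synthase. Core subunits carry the redox centres or the proton path, accessory subunits stabilise the complex, and assembly factors help to build it without staying in the finished enzyme. Tumour cells that divide fast need the chain for ATP and for recycling NAD, and MYC proteins are known to act on many genes of mitochondrial biogenesis.

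Of the 9 sympathetic neuroblast markers measured, 8 stood above the filter on dim signals, and TH (tyrosine hydroxylase) was below it. None of the 3 Schwann and glial markers measured was above it, and the leukocyte and endothelial lists had 1 marker each above it. Of 5 fibroblast and mesenchymal markers 4 were above it, with COL1A2 below, and the 5 summed to 3922.2 to 4723.3 in the arrays without the MYCN hairpin and 3238.6 to 4226.4 in those with it. The part of these lists in the results was not tested. The brightest MYCN probe set read 4507.4 to 5389.7 in the 5 arrays without the MYCN hairpin and 4567.4 to 5623.7 in the 6 with it. A dimmer MYCN probe set (209756_s_at) read 254.2 and 292.3 at 24 hours and 650.7 and 795.6 at 72 hours in the arrays with the hairpin, around the 354.8 to 520.1 of the other 5. Probe set 211377_x_at took a like course, with 130.2 and 162.4 at 24 hours and 338.8 and 404 at 72 hours, against 216.2 to 290.2. Both of these dimmer probe sets lay below all 5 others at 24 hours and above them at 72 hours. The dimmest tested one, 234376_at, overlapped the others at both times. As none of the 4 tested MYCN probe sets was lower across all 6 arrays, the arrays are called labelled shMYCN, and every direction below rests on that label. The 2 arrays of 48 hours were the most unlike pair, with an SD of log2 differences of 0.29 over all tested probe sets against 0.195 to 0.205 in the other pairs.

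Most of the respiratory chain mRNAs moved little in the cells labelled shMYCN, and a pair of subunit mRNAs fell several-fold. COX5B, a nuclear subunit of complex IV, and NDUFB2, an accessory subunit of the membrane arm of complex I, were already lower at 24 hours and fell further to 72 hours. NDUFS1, which holds iron-sulphur clusters of complex I, fell to about 2.00-fold below control virus by 72 hours. COX7C, another complex IV subunit, was higher than control virus. In this bulk RNA, fewer cells of a kind and less RNA per cell cannot be told apart.

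Of the 105 member probe sets (65 genes) above the dim filter, 17 of 11 genes were lower and 12 of 10 genes were higher in the arrays labelled shMYCN than in the control virus arrays, as a mean over the 3 times (limma on log2 of signal plus 16, adjusted p under 0.05 over 24654 probe sets). These are 16.2% and 11.4% of the members, and the same rule called 13.5% of all tested probe sets lower and 16.6% higher. Counted by the brightest probe set of each gene, 10 of 65 member genes were lower (15.4%) and 5 were higher (7.69%), against 14.1% and 19.9% of all 12678 genes. Among the 12 higher probe sets, that of COX8C stood above the filter only through its 72 hour arrays labelled shMYCN, so it had to be high there and its call supports nothing. The median log2 difference was -0.04 over the members and 0.02 over all tested probe sets. With a 1.5-fold minimum added, 7 member probe sets were lower (3.19% of all tested were) and 2 were higher (2.74% of all tested were). The 7 read COX5B, NDUFB2 and NDUFS1 alone, and the 2 read COX7C alone, so these counts hold few genes. COX5B 213736_at (1.507-fold), NDUFS1 203039_s_at (1.503-fold) and COX7C 217491_x_at (1.507-fold) lay just past that minimum. In 68 of the 105 (64.8%) the highest of the 11 arrays was under 1.5-fold above the lowest on the signal plus 16 scale, against 44.7% of all tested probe sets. Arrays of 1 pair also differed less in the members, with an SD of log2 differences of 0.142 to 0.228 against 0.195 to 0.29 over all. Whether that accounts for the narrower range was not tested. Without the control virus array of 72 hours, which leaves the mean of 24 and 48 hours, 8 were lower and 3 higher. Over all 24654 tested probe sets, 1354 were lower and 1432 higher in that run. Of the genes named below, COX5B, NDUFB2, NDUFS1, NDUFA10 and COX7C kept their call there, and the other 15 named calls of the mean lost it. Leaving out the control virus array of 48 hours gave 12 lower and 6 higher, against 2402 and 2822 of the 24654 tested. Leaving out array B of 48 hours, which leaves 1 array in that group, gave more calls in both directions. It did so among the members and over all tested probe sets. The 18 probe sets below the filter were not tested, and they include the sole probe sets of COX7A1 and COX7B2.

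**Figure D1:**
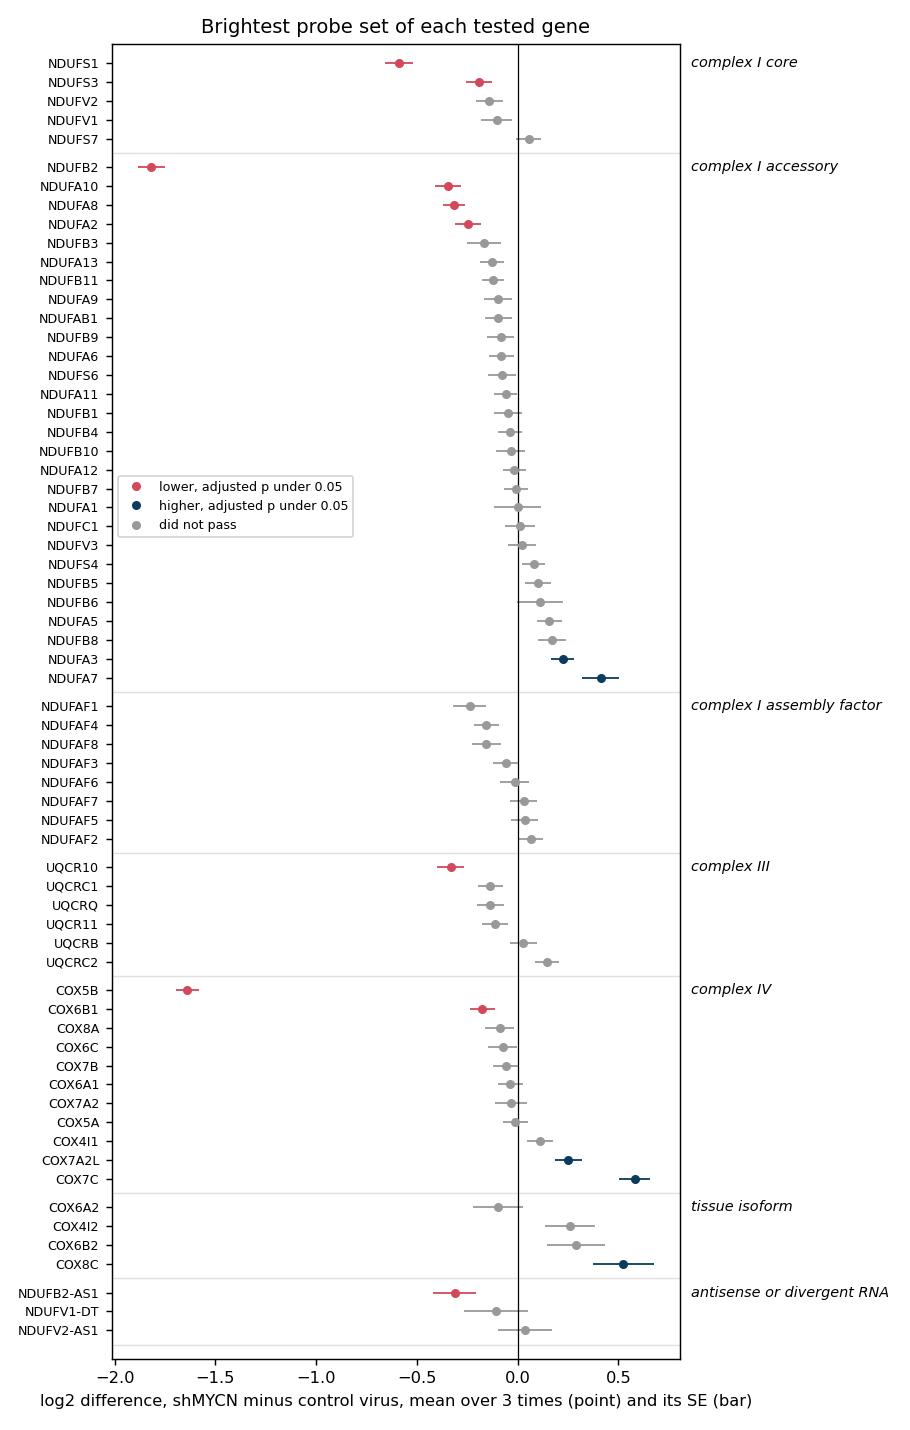
The plot gives 1 row per tested gene, by role, with the log2 difference between the arrays labelled shMYCN and control virus as a mean over 3 times (point) and its SE (bar), for the brightest probe set of the gene. NDUFB2 at -1.82 and COX5B at -1.64 lie far to the left, COX7C at 0.58 is farthest to the right, and most of the others lie close to 0.

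COX5B is read by 4 tested probe sets. Probe set 213735_s_at read 1869.5 and 1920.7 without virus, 1951.5, 1692.9 and 1565.8 in the control virus arrays of 24, 48 and 72 hours, and in the pairs labelled shMYCN 870.1 and 823 at 24 hours, 485.8 and 506.3 at 48 hours and 370.1 and 396.1 at 72 hours. All 6 arrays labelled shMYCN lay below all 5 others, and each later pair lay below the earlier one. The mean over the 3 times was 3.11-fold lower than control virus (log2 -1.64 ± 0.06 SE, adjusted p = 1.86e-08).

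The next COX5B probe set, 202343_x_at, read 1334.5 and 1366.4 without virus and 1492.1, 1248.4 and 1140.3 with control virus, and the pairs labelled shMYCN read 564.9 and 605.8, then 299.1 and 329.4, then 237.3 and 229.8. Probe set 211025_x_at read 1218.2 and 1201.7, then 1261.9, 1177.6 and 1042.1, against 497.1 and 479.2, 245.5 and 277.9, and 191.4 and 197.9. Neither had any overlap between the arrays labelled shMYCN and the rest, and their log2 differences were -1.83 ± 0.06 and -1.93 ± 0.06. The suffix x_at marks probe sets whose probes may also bind transcripts of other genes. At 24 hours the bright probe sets of COX5B were 2.28-fold to 2.54-fold lower (log2 -1.19 to -1.34, adjusted p = 3.84e-04 or smaller), and at 72 hours they were 3.97-fold to 5.02-fold lower. The control virus arrays themselves stepped down over time in all 3, and the 72 hour value is set against the lowest of these.

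NDUFB2 is read by 3 tested probe sets, and the pair of bright ones gave one course. Probe set 218200_s_at read 2532.5 and 2452.9 without virus and 2711.2, 2673.1 and 2383.7 with control virus. In the arrays labelled shMYCN it read 1585.1 and 1553.5 at 24 hours, 570.4 and 688.6 at 48 hours and 371.2 and 383.8 at 72 hours. The highest array labelled shMYCN lay well below the lowest of the others.

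Probe set 218201_at of NDUFB2 read 1147.3 and 1150 without virus, 1246.5, 1090.1 and 1136.4 with control virus, and 712.5 and 684, 214.5 and 230.2, and 115.2 and 143.1 in the pairs labelled shMYCN. It too showed no overlap, and its range over the 11 arrays, 9.62-fold, was the widest of the 105 members. The mean log2 difference was -1.82 ± 0.07 for 218200_s_at and -2.01 ± 0.07 for 218201_at (adjusted p = 2.86e-08 and 1.86e-08). The fall grew from 1.72-fold and 1.77-fold at 24 hours to 6.10-fold and 7.98-fold at 72 hours.

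**Figure D2:**
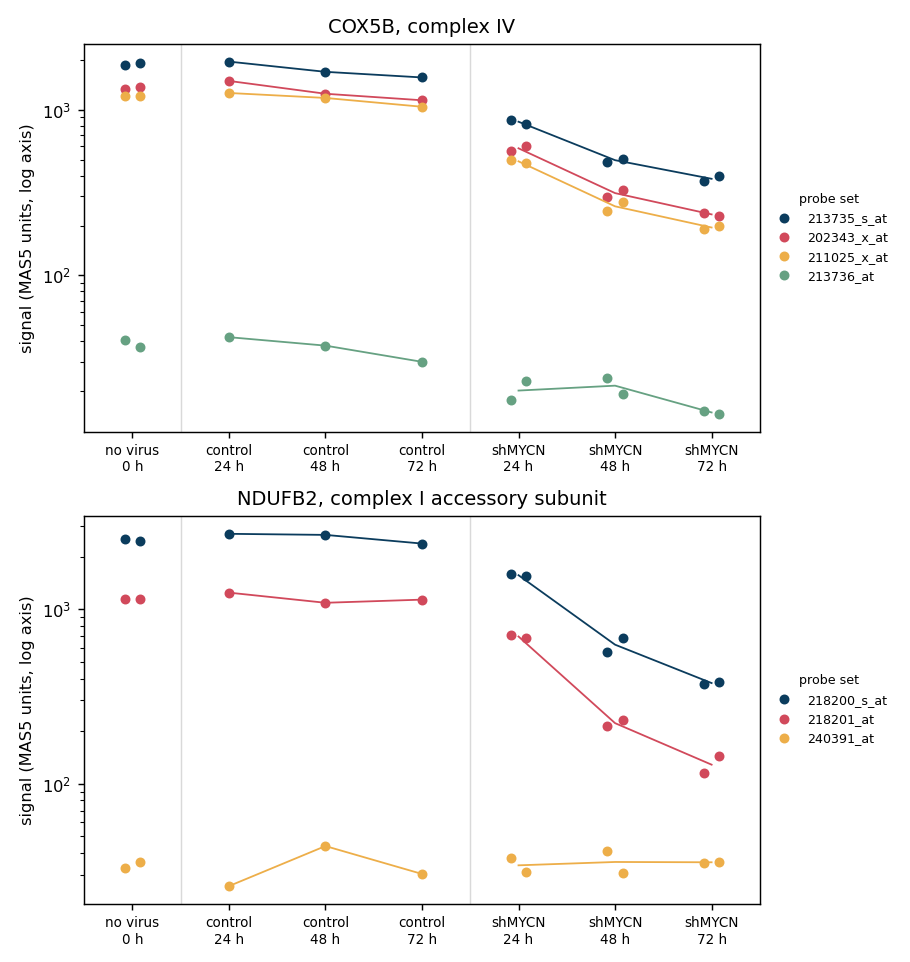
Each point is 1 array, with the signal on a log axis and the 7 groups along the bottom, and lines join the group means of each virus over time for every tested probe set of COX5B and NDUFB2. The bright probe sets of both genes step down from 24 to 72 hours under shMYCN, while the NDUFB2 probe set 240391_at stays at about the same level in all groups.

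The bases before the start of 4 members are shown. COX5B and NDUFB2 fell most, and NDUFS1 fell by less and was not called at 24 hours. COX7C was higher than control virus as a mean but did not pass against no virus as a mean. The sequences are from RefSeq on GRCh38.p14 and give the 250 bases before the annotated start, on the strand of the gene, with the letters CCGGAAGT (bound by ETS factors such as GABP) or their reverse complement in capitals. They lie at chr2:97645812-97646061 on the plus strand (COX5B), chr7:140696458-140696707 on the plus strand (NDUFB2), chr2:206159445-206159694 on the minus strand (NDUFS1) and chr5:86617691-86617940 on the plus strand (COX7C).
COX5B: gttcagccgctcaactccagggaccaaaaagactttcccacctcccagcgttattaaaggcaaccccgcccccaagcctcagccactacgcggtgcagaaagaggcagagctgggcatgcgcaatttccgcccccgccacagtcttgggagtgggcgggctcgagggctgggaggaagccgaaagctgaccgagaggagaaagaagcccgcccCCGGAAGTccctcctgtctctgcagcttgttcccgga
NDUFB2: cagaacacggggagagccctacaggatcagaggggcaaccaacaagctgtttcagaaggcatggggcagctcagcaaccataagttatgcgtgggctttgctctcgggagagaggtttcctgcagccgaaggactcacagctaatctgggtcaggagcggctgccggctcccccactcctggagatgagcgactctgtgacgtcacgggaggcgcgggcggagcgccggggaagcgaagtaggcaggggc
NDUFS1: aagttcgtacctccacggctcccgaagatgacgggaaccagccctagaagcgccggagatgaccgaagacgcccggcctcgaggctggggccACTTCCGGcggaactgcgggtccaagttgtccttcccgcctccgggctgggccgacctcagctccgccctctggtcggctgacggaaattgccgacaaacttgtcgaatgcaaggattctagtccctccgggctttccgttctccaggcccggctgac
COX7C: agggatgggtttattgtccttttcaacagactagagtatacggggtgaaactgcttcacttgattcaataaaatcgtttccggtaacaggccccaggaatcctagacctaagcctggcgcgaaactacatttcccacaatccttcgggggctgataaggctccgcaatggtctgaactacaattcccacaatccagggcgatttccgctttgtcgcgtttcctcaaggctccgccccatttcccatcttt

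The ETS letters start 37 bases before the COX5B start and 158 bases before that of NDUFS1, and neither they nor the other letters searched occur in the stretches printed for NDUFB2 and COX7C. In the table, 57 of the 64 protein-coding members had a promoter of 300 bases, which runs 50 bases past the start. Other sets of letters, known from promoters of respiratory genes or of MYC targets, were searched on both strands in the same windows. CCGGAAGT occurred in 10.5% of the member promoters and in 4.44% of all 27305 promoters. The 27305 were not limited to protein-coding genes, as the members were, so each pair of shares sets unlike groups of genes side by side. The NRF1 letters GCGCATGCG occurred in 10.5% and 2.10%, and the looser CGCANGCG, which overlaps them, in 28.1% and 10.6%. The YY1 letters AAGATGGCG were found in 10.5% and 1.85%, and the E-box CACGTG, which MYC proteins bind, in 8.77% and 7.43%. No E-box occurred in the windows of COX5B, NDUFB2, NDUFS1 or COX7C, and the members that held one were NDUFA7, NDUFA11, NDUFAF5, NDUFS7 and UQCR11. A match of letters describes the sequence and does not show that a factor binds there.

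Among the core subunits of complex I, 4 of 9 probe sets were lower and none was higher. The same rule called 13.5% of all tested probe sets lower and 16.6% higher, shares that stand beside the count of each role below as well. NDUFS1 gave most of the 9, and the median log2 difference of -0.25 is that of its dim probe set 239268_at, which did not pass. Of the lower 4, 3 read NDUFS1. Probe set 203039_s_at of NDUFS1 read 475.6 and 497.5 without virus, 473.4, 437.2 and 487 with control virus, and 361.7 and 399.2, 338.6 and 291.9, and 241.6 and 228.9 in the pairs labelled shMYCN. Every array labelled shMYCN was below every other array. The mean log2 difference was -0.59 ± 0.07 (adjusted p = 8.17e-05), and at 72 hours the probe set was 2.00-fold below control virus (adjusted p = 1.21e-04).

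A second NDUFS1 probe set, 229647_at, read 169.7 and 173.4, then 154, 149.8 and 179.6, against 137.7 and 141.4, 122.4 and 117.1, and 82.3 and 84.3 under shMYCN, again without overlap (log2 -0.47 ± 0.07). Another, 235321_at, was lower by a smaller amount (-0.36 ± 0.10, adjusted p = 0.0216) and also without overlap. The dim probe sets 236356_at and 239268_at of the gene gave -0.35 ± 0.17 and -0.25 ± 0.14 and did not pass. NDUFS3, a core subunit of the peripheral arm, read 1123.7 and 1131.3 without virus and 1188, 1122.6 and 1007 with control virus, against 1132.2 and 1091.9, 862.5 and 1030.8, and 865.3 and 847.8. Its groups overlapped, and the difference of -0.19 ± 0.07 only just passed (adjusted p = 0.0471).

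NDUFS7, which holds the iron-sulphur cluster next to ubiquinone, did not pass. It read 435.4 and 436.5 without virus, 448.1, 452.9 and 419.6 with control virus and 431.5 to 483.5 in the arrays labelled shMYCN (0.05 ± 0.06), and at 1.15-fold its range over the 11 arrays was the narrowest of the members. NDUFV1 and NDUFV2, which carry the NADH-binding end of the enzyme, gave -0.10 ± 0.08 and -0.14 ± 0.07 and did not pass.

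Among the accessory subunits of complex I, 6 of 43 probe sets were lower, 3 were higher and 34 did not pass, with a median of -0.02. NDUFB2 gave 2 of the lower ones. NDUFA10, a subunit of the membrane arm that resembles nucleoside kinases, read 735 and 753.7 without virus, 815.7, 745 and 801.2 with control virus and 662.9 and 651.3, 546.5 and 612.8, and 581.3 and 649.3 under shMYCN. No array labelled shMYCN reached the lowest of the others (-0.34 ± 0.06, adjusted p = 0.00174).

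NDUFA8, a twin CHCH-domain subunit of the membrane arm, fell late. It read 763.2 and 774.5 without virus, 768.5, 737.1 and 759.8 with control virus, and 750.8 and 716.2, 638.2 and 631.5, and 483.4 and 460.2 under shMYCN. At 24 hours the groups overlapped, and at 48 and 72 hours all 4 arrays labelled shMYCN were below the rest. Its log2 difference was -0.07 ± 0.10 at 24 hours, which did not pass, and -0.67 ± 0.10 at 72 hours (adjusted p = 4.35e-04).

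NDUFA2, a small subunit of the peripheral arm with a thioredoxin-like fold, took a similar course. Probe set 209224_s_at read 1004.1 and 1005.1, then 1034.3, 1053.9 and 924.8, and under shMYCN 1082 and 1063.6, 810.7 and 958, and 606.5 and 658.9. The 24 hour pair was the highest of all groups and the 72 hour pair the lowest. The mean difference was -0.25 ± 0.07 (adjusted p = 0.0152). A dim probe set of NDUFB8, 214241_at, read 66.7 to 93.2 in the 5 other arrays and 52 to 70.4 in those labelled shMYCN, with overlap (-0.29 ± 0.09, adjusted p = 0.0284).

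The accessory subunits that were higher differed by less than those that fell most. NDUFA7 read 325.1 and 369.1 without virus and 319.7, 323.8 and 250.6 with control virus, against 367.7 and 400, 435.3 and 362, and 474.6 and 366.6 under shMYCN. The groups overlapped through the second array without virus, and the control virus array of 72 hours was the lowest of all (0.41 ± 0.09, adjusted p = 0.00564). NDUFA3 read 574.2 to 658.3 in the 5 other arrays and 634.8 to 782.8 under shMYCN (0.22 ± 0.06, adjusted p = 0.0105), with overlap at 24 hours only. NDUFA6 probe set 202000_at read 262.6 to 284.9 and 281.4 to 364.5, with overlap through 1 array of 24 hours (0.22 ± 0.06, adjusted p = 0.0165). The brighter NDUFA6 probe set, 202001_s_at, gave -0.08 ± 0.06 and did not pass.

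NDUFA1, a short membrane-arm subunit, gave a log2 difference of 0.00 ± 0.12 (adjusted p = 0.999). It read 1104 and 1210.2 without virus, 1231.9, 1254.7 and 1071 with control virus, and 1041.4 and 1288.4, 1002.8 and 1396.9, and 1052.3 and 1386.5 under shMYCN. The wide spread lay between the A arrays, all low, and the B arrays, all high.

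None of the 13 probe sets of complex I assembly factors was lower as a mean (3 at an unadjusted p under 0.05), and 1 was higher. That one, NDUFAF7 probe set 220943_s_at, read 113 and 133.5 without virus and 99.5, 85.7 and 102.2 with control virus, against 123.4 and 115.4, 127.4 and 94.9, and 130.3 and 148.7. NDUFAF7 is a methyltransferase that modifies a core subunit. Its difference of 0.31 ± 0.10 (adjusted p = 0.0335) was -0.005 against the arrays without virus, so it depends on the control virus arrays, and the brighter probe set of the gene gave 0.03 ± 0.07. NDUFAF8, a partner of another assembly factor, did not pass as a mean (-0.15 ± 0.07), and at 72 hours it was lower (-0.42 ± 0.12, adjusted p = 0.0260). NDUFAF1, one of the factors of the membrane arm, gave -0.24 ± 0.08 (adjusted p = 0.0502) as a mean and was lower at 72 hours (-0.54 ± 0.15, adjusted p = 0.0177).

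In complex III, 1 of 13 probe sets was lower and 1 was higher. UQCR10, one of its smallest subunits, read 2471.1 and 2598.1 without virus, 2586, 2596.7 and 2365.8 with control virus and 2400.8 and 2284.8, 1866.3 and 2232.2, and 1702.9 and 1603.6 under shMYCN (218190_s_at, -0.33 ± 0.07, adjusted p = 0.00351). From 48 hours on it lay below all other arrays, and its dim probe set 228142_at gave -0.06 ± 0.12.

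UQCRB, the ubiquinone-binding subunit, is read by 4 probe sets. The brightest, 205849_s_at, read 2569 to 3061.2 in the 5 other arrays and 2621.8 to 3090.3 under shMYCN and did not pass (0.03 ± 0.07). Probe set 209065_at read 274.4 to 350.1 and 313.7 to 388.7, with overlap (0.23 ± 0.08, adjusted p = 0.0367). The core proteins UQCRC1 and UQCRC2 gave -0.14 ± 0.06 and 0.14 ± 0.06 and did not pass.

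In complex IV, 5 of 20 probe sets were lower and 6 were higher. The lower ones were the 4 of COX5B and 1 of COX6B1, a subunit on the side that faces cytochrome c. COX6B1 read 1703.3 and 1653.5 without virus, 1843.7, 1736.1 and 1565.3 with control virus, and 1836 and 1628.2, 1512.8 and 1546.7, and 1346.1 and 1277.3 under shMYCN. Its groups overlapped, and it only just passed (-0.17 ± 0.06, adjusted p = 0.0481). COX5A, a subunit on the matrix side, read 2823.5 to 3146.6 in the 5 other arrays and 2771.7 to 3248.4 under shMYCN and did not pass (-0.01 ± 0.06).

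COX7C is a small membrane subunit and gave 3 of the 6 higher probe sets. Probe set 213846_at read 358.1 and 404 without virus and 311.8, 268.1 and 193.5 with control virus, and 375 and 367.2, 408.7 and 419.2, and 499.5 and 564.7 under shMYCN (0.74 ± 0.07, adjusted p = 1.27e-05). The arrays labelled shMYCN were above all control virus arrays but not above both arrays without virus at 24 hours. Probe set 201134_x_at read 2964.3 and 2833.7, then 2816.9, 2106.2 and 1618.2, against 2959.7 and 2948.3, 3555.2 and 3262, and 3629.6 and 2840.1 (0.58 ± 0.08).

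Probe set 217491_x_at of COX7C read 2898.3 and 2768.4, then 2616.3, 2065.6 and 1432.7, against 2995.4 and 2730.7, 3060.9 and 3013.6, and 3206.9 and 2949.8 (0.59 ± 0.06). In all 3 the control virus arrays stepped down from 24 to 72 hours, 1 array at each time. Against the arrays without virus, COX7C was higher by 0.18 ± 0.08, 0.14 ± 0.09 and 0.08 ± 0.07, and none of these passed (adjusted p = 0.116, 0.321 and 0.483). At 72 hours against no virus, 213846_at alone of the 3 passed (0.47 ± 0.10, adjusted p = 0.00256).

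**Figure D3:**
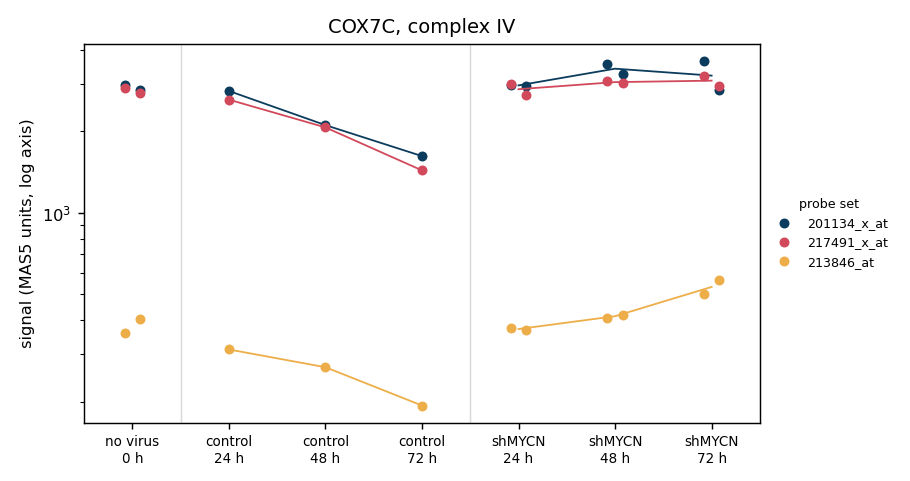
Each point is 1 array, with the COX7C signal on a log axis and the groups along the bottom, and lines join the group means of each virus over time. The control virus arrays step down (2816.9, 2106.2 and 1618.2 for 201134_x_at), and the arrays labelled shMYCN lie near or above the arrays without virus.

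COX7A2L, a COX7A-related protein that joins complexes III and IV into supercomplexes, read 1780.6 and 1689.3 without virus, 1835.4, 1796.6 and 1802.6 with control virus, and 2017.7 and 1769.5, 2128.5 and 2305.3, and 2515.1 and 2286.5 under shMYCN. From 48 hours on it lay above all other arrays (0.25 ± 0.07, adjusted p = 0.0150), and against no virus it also passed (0.31 ± 0.08, adjusted p = 0.0127). COX7B probe set 239252_at read 132.9 and 152.6, then 125.7, 107 and 96.6, against 139.4 and 137.2, 174.8 and 146.5, and 155.7 and 165.8 (0.43 ± 0.08, adjusted p = 0.00204). It was not higher against no virus (0.09 ± 0.09, adjusted p = 0.541). COX4I1, the largest nuclear subunit, read 1138.2 to 1363.6 and 1300.7 to 1454.6 on 200086_s_at (0.18 ± 0.06, adjusted p = 0.0340), and its brightest probe set gave 0.11 ± 0.06 and did not pass.

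The tissue isoforms were near background. COX8C, a testis isoform, read 4 and 12.4 without virus, 10.2, 5.4 and 9.6 with control virus, and 9.9 and 5.7, 21.8 and 12.7, and 34.3 and 43.6 under shMYCN. The 72 hour pair was the highest and the 24 hour pair lay among the others. Without that pair its mean signal was 9.75, under the filter at 11.14, so these values are a description. COX4I2, COX6A2 and COX6B2, known from lung, striated muscle and testis, read 12.2 to 30.6, 7.30 to 15.1 and 7.80 to 25.8 over the 11 arrays and did not pass. COX7A1 and COX7B2 read 0.70 to 2.90 and 0.80 to 9.20, below the filter. Of 4 striated muscle markers, 2 were above the filter, and the 4 summed to 51.1 to 96.2 in the 5 other arrays and 19.7 to 80.5 under shMYCN.

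NDUFB2-AS1, annotated on the strand opposite NDUFB2, read 32.1 and 28.5 without virus, 31.2, 50.6 and 42.8 with control virus and 23.2 to 36.3 under shMYCN. It passed against control virus (-0.31 ± 0.11, adjusted p = 0.0476), and against no virus it gave -0.01 ± 0.13. The groups overlapped. NDUFV1-DT and NDUFV2-AS1 gave -0.11 ± 0.16 and 0.04 ± 0.13 and did not pass.

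By time, the COX5B and NDUFB2 probe sets were the first called. At 24 hours, 5 members were lower (3 of COX5B and 2 of NDUFB2), or 4.76% against 0.426% of all tested probe sets, and none was higher (2 at an unadjusted p under 0.05), where 0.073% of all were. The 5 calls became 3 without either shMYCN array of 24 hours or either array without virus. Among the members, 48 hours gave 7 lower and 5 higher (5.84% and 6.19% of all), and 27 calls in place of 12 without array B of 48 hours. At 72 hours, 15 were lower and 9 higher (12.3% and 13.7% of all). Of the 17 lower as a mean, 12 gave a lower difference at each later time. Of the 12 higher, 9 gave a higher one, COX8C among them with its limit given above. How often this holds over all called probe sets was not counted.

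**Figure D4:**
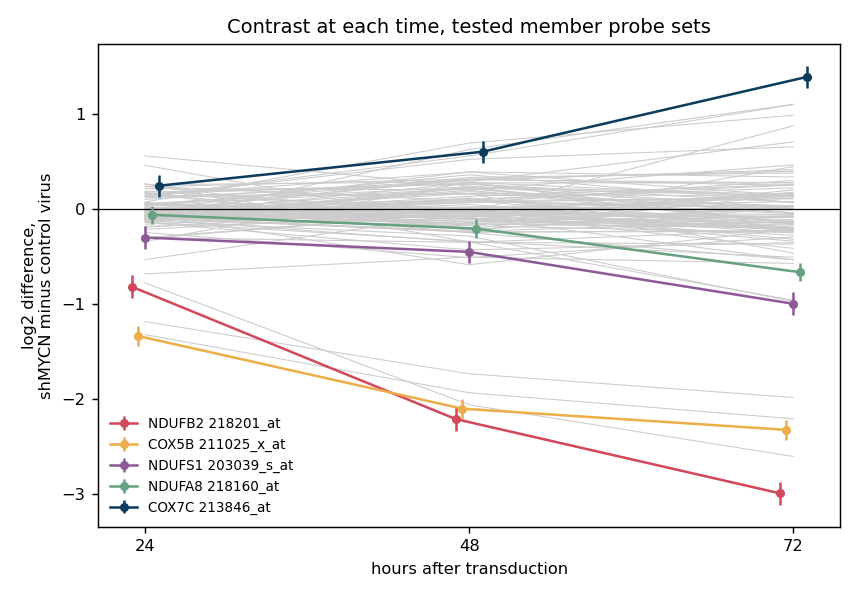
Each line is 1 tested member probe set, with hours after transduction along the bottom and the log2 difference between the arrays labelled shMYCN and control virus upward, and bars give the SE of the 5 coloured ones. COX5B is lowest at 24 hours (-1.34), NDUFB2 is lowest at 72 hours (-3.00), and NDUFS1 and NDUFA8 part from the grey lines by 72 hours.

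The difference between the 72 and 24 hour contrasts was itself tested. It was lower in 8 member probe sets (3.65% of all tested were) and higher in 4 (2.77% of all). The 8 were 2 of NDUFB2 (-2.17 ± 0.17 and -1.83 ± 0.16), 3 of COX5B (-0.80 to -0.99), 2 of NDUFS1 (-0.85 ± 0.17 and -0.70 ± 0.17) and 1 of NDUFA8 (-0.60 ± 0.14, adjusted p = 0.0259). The 4 were the 3 of COX7C (0.91 to 1.15) and UQCRB probe set 244293_at (1.18 ± 0.28, adjusted p = 0.0302), and each rests on single control virus arrays at 24 and 72 hours. The 12 calls became 7 without either shMYCN array of 24 hours and 8 without either of 72 hours.

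Within the arrays labelled shMYCN, 72 against 24 hours, 27 member probe sets of 22 genes were lower (25.7%, against 13.2% of all tested) and 7 were higher (6.67%, against 15.1% of all). Outside COX5B and NDUFB2 the lower ones were 22 probe sets of 20 genes, and 7 of the 22 were also lower than control virus as a mean. The 1 control virus series moved the same way in 18 of the 22: it read lower at 72 than at 24 hours, as it did in 72.4% of all tested members and 47.2% of all tested probe sets. The 34 calls of the members became 16 or 20 when array A or B of 24 hours was left out, and 18 or 21 when array A or B of 72 hours was. The median of this comparison was -0.10 over the members and 0.03 over all.

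NDUFB2 (-2.31 ± 0.10 and -2.01 ± 0.10) and COX5B (-1.11 to -1.27) led the falls from 24 to 72 hours. NDUFA2 followed with -0.75 ± 0.09 and NDUFAF8 with -0.74 ± 0.10 (adjusted p = 2.67e-04). NDUFAF8 read 1433 and 1507.2 without virus, 1485.6, 1292.1 and 1184.9 with control virus, and 1549.1 and 1424.9, 1364.1 and 1149.2, and 838.8 and 927.4 under shMYCN. Its 72 hour pair was the lowest of all groups, and the control virus arrays stepped down as well.

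NDUFS1 also fell over that interval, by -0.66 ± 0.10 (203039_s_at), -0.65 ± 0.10 (229647_at) and -0.71 ± 0.24 (the dim 236356_at), and NDUFA8 by -0.62 ± 0.08. The other falls were mostly of bright subunits and under 1.5-fold. Among them were UQCR10 (-0.50 ± 0.10), COX6B1 (-0.40 ± 0.09), UQCRQ (-0.39 ± 0.10), NDUFA13 (-0.37 ± 0.09), NDUFA9 (-0.35 ± 0.10), COX7A2 (-0.35 ± 0.11) and UQCRC1 (-0.32 ± 0.09). Of the 7 higher, 1 was COX8C, with its limit given above. UQCRB probe set 244293_at read 52 and 53.9 at 24 hours, 65.2 and 42.9 at 48 hours and 95.9 and 89.4 at 72 hours, and 43.4 to 69.3 in the 5 other arrays. Its 72 hour pair was above every other array (0.66 ± 0.16, adjusted p = 0.0100), while the 2 brightest probe sets of UQCRB gave -0.02 and -0.03. COX7C 213846_at rose by 0.50 ± 0.09 and COX7A2L by 0.34 ± 0.09.

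No member passed the test of control virus against no virus. Control virus against no virus gave 0 of 105 calls (7 lower and 1 higher at an unadjusted p under 0.05) by limma, where 0.0122% of all tested probe sets were called in either direction. There were 2 calls without the control virus array of 24 hours or either array of 48 hours labelled shMYCN. COX7C had the lowest values of this comparison (-0.56, -0.51 and -0.44). Against the arrays without virus, the arrays labelled shMYCN gave 14 lower member probe sets (10.7% of all tested were) and 5 higher (12.6% of all). Both comparisons share the arrays labelled shMYCN. Of the 17 lower against control virus, 12 were also lower against no virus, and of the 12 higher, 4 were. COX8C is among these 4, with its limit given above, so it supports nothing here. How often calls are shared over all called probe sets was not counted. Of the 12 higher, 10 had their lowest array among the 3 control virus arrays, and in 6 it was the one of 72 hours. The 12 were picked for lying above those arrays, so this count is largely fixed by the choice. It was not counted over all called probe sets, and nothing is drawn from it.

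Arrays without overlap give a view that uses no variance. All 6 arrays labelled shMYCN lay below all 5 others in 10 member probe sets (6.39% of all tested did) and above them in 2 (5.95% of all did). The 10 were 4 of COX5B, 3 of NDUFS1, 2 of NDUFB2 and 1 of NDUFA10. The 2 were NDUFB8 201227_s_at, at 1858.7 to 2265.8 against 1693.8 to 1816.3, and UQCRC2 212600_s_at, at 1355.6 to 1570.2 against 1251.8 to 1331.8. Neither passed the test of the mean (0.17 ± 0.07, adjusted p = 0.0911, and 0.14 ± 0.06, adjusted p = 0.0946).

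Probe sets of 1 gene disagreed in 3 of 27 genes. For each gene with several tested probe sets, the log2 difference between its brightest probe set and each other one was tested in the same groups. This gave 40 member pairs, of which 3 differed (8.20% of 11976 pairs did over all genes), in NDUFB2, COX5B and COX7B. In 8 pairs both probe sets were called against control virus, each time in the same direction, in 12 only 1 was called, and in 10 the signs were opposite. The 3 pairs became 5 without the control virus array of 24 hours, 7 without array B of 48 hours, and 2 without the control virus array of 48 or 72 hours or array B of 24 or 72 hours.

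In NDUFB2 the exception was 240391_at, with a mean signal of 34.4. It read 32.6 and 35.6 without virus, 25.8, 43.8 and 30.3 with control virus, and 37.2 and 31, 40.9 and 30.8, and 35.1 and 35.6 under shMYCN. No group stood apart, its own difference was 0.07 ± 0.11, and the brightest probe set differed from it by -1.88 ± 0.13 (adjusted p = 5.89e-04). At that signal, what the probe set reads was not tested.

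In COX5B the exception was 213736_at, which read 40.5 and 37 without virus, 42.4, 37.7 and 30.1 with control virus, and 17.8 and 22.9, 24.2 and 19.3, and 15.2 and 14.6 under shMYCN. It was lower in every array labelled shMYCN, and its fitted difference was smaller (-0.59 ± 0.11). The constant of 16 added before the log shrinks the change of a signal this dim. The gap to the brightest probe set was -1.05 ± 0.11 (adjusted p = 0.00123). In COX7B the bright 202110_at read 2449.5 to 2629.5 in the 5 other arrays and 2129.8 to 2791 under shMYCN (-0.06 ± 0.06), while 239252_at was higher, and the pair differed by -0.49 ± 0.10 (adjusted p = 0.0202). The NDUFB8 pair of 201227_s_at and 214241_at, with 0.17 and -0.29, fell just outside the threshold (0.46 ± 0.12, adjusted p = 0.0507).

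**Figure D5:**
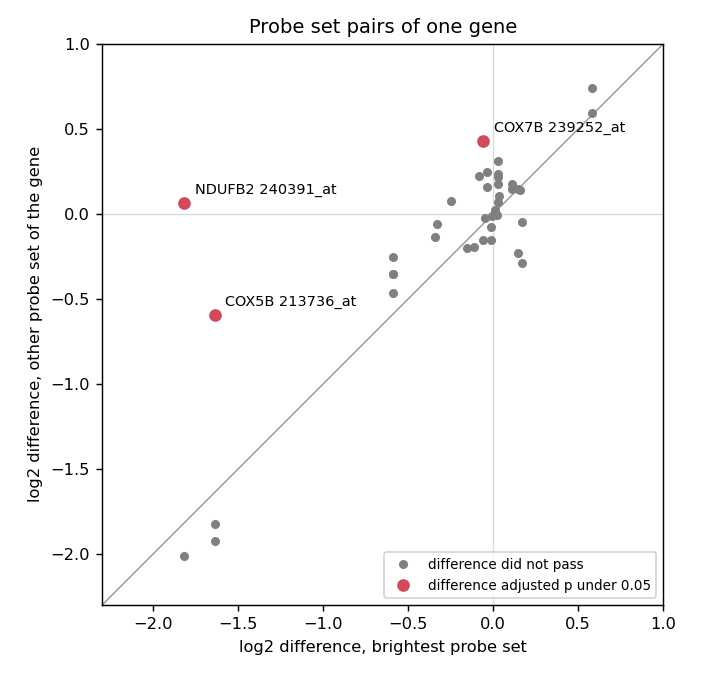
Each point is 1 pair of probe sets of a member gene, with the log2 difference between shMYCN and control virus of the brightest probe set along the bottom and of the other one upward, and the diagonal marks equal differences. NDUFB2 240391_at, COX5B 213736_at and COX7B 239252_at are the 3 pairs that differed, and the other COX5B and NDUFB2 pairs lie together at the lower left.

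The neighbouring parts of the oxidative phosphorylation system were counted by the brightest probe set of each gene, a rule that called 14.1% of all 12678 genes lower and 19.9% higher. In ATP synthase, 0 of 17 genes passed in either direction (limma), 1 of them with an unadjusted p under 0.05 (ATP5MC3, -0.15 ± 0.07), and the median was -0.05. Other probe sets of ATP synthase genes were called, 1 each of ATP5PB and ATP5IF1 lower and 1 each of ATP5PO, ATP5MG and ATP5MJ higher. In complex II, 1 of 3 measured genes was lower, SDHD, a membrane anchor (-0.29 ± 0.08, adjusted p = 0.0140), and SDHA, the flavoprotein, gave -0.19 ± 0.07. Of the 7 probe sets of SDHC, the other membrane anchor, 2 were higher, though not the brightest. CYCS, the cytochrome c that carries electrons between complexes III and IV, was lower on its brightest probe set (-0.41 ± 0.07, adjusted p = 0.00116). Of the 3 tested probe sets of CYCS, only that 1 was called. CYC1, the cytochrome of complex III, gave -0.19 ± 0.08 and did not pass.

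Of 22 complex IV assembly genes, 3 were lower and 6 were higher. COX16 was among the lower ones (-0.47 ± 0.06), and COX20, a chaperone of a mitochondrially encoded subunit, was the highest (0.70 ± 0.07, adjusted p = 4.49e-05), with COA5 (0.55 ± 0.07) and PET100 (0.46 ± 0.06) also higher. Of 6 complex III assembly genes, LYRM7 (-0.32 ± 0.08) and BCS1L (-0.23 ± 0.07), which act on the insertion of the Rieske iron-sulphur protein, were lower and none was higher. For LYRM7 this is the brightest of 4 tested probe sets, and no other of the 4 was called. None of 7 other complex I assembly genes passed by limma, and 0 had an unadjusted p under 0.05.

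Of 9 regulators, 2 were lower and 2 were higher. TFAM, the factor that packages and transcribes mitochondrial DNA, was lower on all 4 of its tested probe sets (brightest -0.47 ± 0.07, adjusted p = 3.98e-04). ESRRA, a nuclear receptor of oxidative genes, was higher (0.51 ± 0.08, adjusted p = 6.52e-04). The coactivators PPARGC1A and PPARGC1B gave 0.36 ± 0.12 and -0.37 ± 0.12 and passed in opposite directions. NRF1, GABPA and YY1, whose letters were searched in the promoters, gave -0.11 ± 0.07, 0.27 ± 0.10 and -0.11 ± 0.06 and did not pass.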

How the data were processed

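The deposited intensity values are linear signals per probe set, made by the authors with MAS5 and GCOS per the submitters' processing notes. In each array the middle 96% of values average 100, as checked on the deposited intensity values. Scanner files were not used here. Of 54675 probe sets, 41097 have 1 symbol in the platform annotation (1801 have several and 11777 none), and symbols were updated for current names through the RefSeq gene table. Control probe sets and the dimmest 40% (mean signal under 11.1) were left out, and 24654 were tested.

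limma 3.58.1 (R 4.3.3) was fitted to log2(signal + 16) with 7 group means, a trended prior and 4 residual degrees of freedom, two-sided, with Benjamini-Hochberg adjustment over all tested probe sets. A fold change on this scale understates the change of dim probe sets. Control virus groups have 1 array each and were taken to vary like the pairs. Pairs of probe sets were tested on their log2 difference per array. The fit was tested on simulated data. Figures were drawn with matplotlib 3.10.9.

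The members, the gene lists and the rule for named genes were chosen with earlier results of these data known. Genes named with values are the 10 lowest and 10 highest calls of the mean, the pairs that differed, the 4 largest calls in the other comparisons, 1 representative per complex that did not pass, the tissue isoforms, and up to 4 genes of each other list. Other genes named were chosen after their values were seen. Alternatives were other offsets, scalings, filters, gene summaries, references and arrays left out.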

Additional observations from a re-analysis of the deposited data

Results flagged for a closer look

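In 12 member probe sets the shMYCN contrast at 72 hours differed from that at 24 hours by limma's test of the difference itself, on the log2 scale. The difference was -2.174 and -1.826 for NDUFB2 (218201_at and 218200_s_at). It was -0.987, -0.885 and -0.797 for COX5B (211025_x_at, 202343_x_at and 213735_s_at). NDUFS1 gave -0.85 and -0.696 (229647_at and 203039_s_at), and NDUFA8 gave -0.604. In the other direction COX7C gave 0.913, 0.966 and 1.145 (201134_x_at, 217491_x_at and 213846_at), and the control virus arrays of COX7C fell between the same times. UQCRB 244293_at gave 1.178, and the bright UQCRB probe sets gave 0.23 and 0.32. Each value sets 2 pairs of arrays labelled shMYCN against 1 control virus array at each time.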

How the results depend on the processing

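Of 28 named calls, 8 held in every alternative run: those of COX5B, NDUFB2 and NDUFS1 as a mean, those of COX5B, NDUFB2, NDUFA2 and NDUFAF8 between 24 and 72 hours, and that of COX8C between those times, which says nothing of stability because COX8C entered through its 72 hour pair. Over all alternatives, 519 of 633 values kept direction and call, 113 kept direction only, and 1 reversed: NDUFAF7 220943_s_at gave -0.005 against the arrays without virus, a reference chosen after seeing the data. Control virus groups of 1 array and pairs of 2 limit every call, and dim probe sets have the widest errors.

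The mean comparison called 29 member probe sets (17 lower, 12 higher). It called 9 (7 and 2) with a 1.5-fold minimum, 19 against no virus (5 higher), 15 genes when refitted on the brightest probe set of each gene (11 and 4) and 15 with the mean of its probe sets (9 and 6). Leaving out 1 array gave 11 to 40 calls, 8 to 23 of them lower and 3 to 19 higher. The 24 hour count of 5 was 3 with no dim filter or no variance trend, 2 genes by the brightest and 1 by the mean, and 3 to 5 with 1 array left out. The 48 hour count of 12 was 6 and 4 genes, 20 with the 5 other arrays as 1 reference, and 8 to 27 with 1 array left out. The 72 hour count of 24 was 13 and 12 genes, 58 with 1 reference of 5 arrays and 37 against no virus, and 18 to 31 with 1 array left out. The 34 calls between 24 and 72 hours were 18 with no variance trend, 13 with a 1.5-fold minimum and 16 to 40 with 1 array left out. The 12 differences of contrasts were 6 and 4 genes, and 7 to 17 with 1 array left out. Control virus against no virus gave 1 call after quantile normalization, 1 without the 48 hour arrays (an alternative chosen after seeing the data) and 0 to 2 with 1 array left out. The 3 pairs were 9 with an offset of 64, 8 with 1 reference of 5 arrays and 2 to 7 with 1 array left out. The cause was not tested, beyond the fewer features of the gene summaries and the fewer samples of the arrays left out.

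Across probe sets, A minus B deviations correlated by -0.025, 0.041 and 0.097 between times. Values this near 0 gave no sign that the letters pair the arrays. They cannot exclude it, since a correlation over all probe sets can miss a pairing that touches few of them. Some members separated by letter, as described below, and whether that reflects a pairing was not tested. With the letter as a replicate block the mean comparison called 29 (16 lower, 13 higher), and of the 28 named calls that of NDUFB2-AS1 alone was lost. Quantile normalization gave 16 lower and 18 higher, and median scaling 19 and 10.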

Other observations

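Against the arrays without virus, a few members passed that did not pass against control virus. COX4I1 probe set 213758_at, dim at 21.9 and 18.2 without virus, read 28.4, 26.5 and 39.6 with control virus and 33.5 to 40.2 under shMYCN, and was higher against no virus (0.53 ± 0.11, adjusted p = 0.00516). NDUFA10 probe set 227206_at gave -0.42 ± 0.12 (adjusted p = 0.0255) and NDUFAF8 gave -0.31 ± 0.08 (adjusted p = 0.0165). The control virus arrays differed from no virus by 0.39, -0.28 and -0.16 on these probe sets, and none of these passed.

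The letters A and B separated some members in all 3 pairs. NDUFA1 read 1041.4, 1002.8 and 1052.3 in the A arrays and 1288.4, 1396.9 and 1386.5 in the B arrays. UQCRB was higher in every A array than in any B array on 205849_s_at (2831.2 to 3090.3 against 2621.8 to 2725.3) and on 209065_at (354.7 to 388.7 against 313.7 to 350.5). All A arrays were below all B arrays in 2 of 105 members (1.90%, against 2.91% of all tested probe sets) and above them in 7 (6.67%, against 2.45%).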
